A study of Homo sapiens with 6 samples.

Results

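The genes of the NRF2 antioxidant response were examined in HuCCT1 cells with and without CD90. The 10 genes are NFE2L2, which encodes the transcription factor NRF2, its repressor gene KEAP1, and 8 target genes (NQO1, HMOX1, GCLC, GCLM, TXNRD1, SRXN1, SLC7A11 and AKR1C1). They were taken by symbol, and all 10 were found among the 20811 genes of the table. HuCCT1 is an established human intrahepatic cholangiocarcinoma cell line. Both lines received a lentivirus at an MOI of 40, the THY1-CMV-GFP virus for HuCCT1/CD90+ and the Lenti-CMV-GFP-2A-Puro-Blank virus for HuCCT1/CD90-, so both were transduced. The virus names differ in THY1, the gene of CD90, and in the 2A-Puro part, which is named for HuCCT1/CD90- alone, and effects of these cannot be told apart. There were 3 libraries of each line, numbered 1 to 3, with no drug treatment in the labels. No clone or sort of either line is named in the sources used here, nor whether the libraries came from separate cultures, so that p-values measure the spread between these libraries, which may be technical.

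Values are RPM, reads per 1000000 reads on genes, each gene being read over 1 short amplicon whose position is not given in the sources used here. Every HuCCT1/CD90- library was deeper (9345680 to 10551516 reads) than every HuCCT1/CD90+ library (8587634 to 9327650), and 3 reads, taken as the detection floor, correspond to 0.284 to 0.349 RPM. THY1 had at most 1 read in the HuCCT1/CD90- libraries and 435 to 680 reads in the HuCCT1/CD90+ libraries, as labelled. The cells carried biliary markers: the 7 markers summed to 8210 to 9314 RPM in HuCCT1/CD90- against 10974 to 11722 RPM in HuCCT1/CD90+, and 5 of 7 were higher in HuCCT1/CD90+ (limma, adjusted p ≤ 0.05), or 3 of 7 with replicate number as a block, where KRT19 and KRT8 lost their calls. The 6 hepatocyte markers summed to 4.66 to 6.42 RPM and to 1.95 to 2.90 RPM, with APOA1 lower and 4 of 6, ALB among them, at the floor throughout. The 5 fibroblast markers summed to 41.0 to 64.4 RPM in HuCCT1/CD90- against 20.3 to 24.7 RPM in HuCCT1/CD90+, with 4 of 5 lower, or 2 of 5 with the block, DCN and COL3A1, which lost their calls there, at the floor in HuCCT1/CD90+ and none at the floor in both lines. The 6 blood and endothelial markers summed to 61.0 to 74.6 and 84.6 to 102 RPM, most of it CD68. CD68 was higher (mean 50.8 RPM in HuCCT1/CD90- against 92.2 RPM in HuCCT1/CD90+) and CDH5 lower (16.6 against 0.293 RPM). At the floor throughout were 2 of 6, PTPRC among them. The part that these marker shifts have in the results below was not tested.

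NRF2 is a basic leucine zipper factor that is held in the cytoplasm by KEAP1, an adaptor of the CUL3 ubiquitin ligase, and is degraded there. Oxidants and electrophiles modify cysteines of KEAP1, and NRF2 then accumulates without a need for more of its own mRNA, pairs with a small MAF protein and binds antioxidant response elements (AREs). Its targets make glutathione, recycle thioredoxin and reduce quinones and carbonyls, and in bile duct epithelium and its tumours the same enzymes handle bile-borne electrophiles and drugs. The mRNA of a target thus reflects more than the mRNA of NRF2, and several targets also answer to other factors, such as HMOX1 to BACH1 and SLC7A11 to ATF4.

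Of the 10 genes, 3 targets (NQO1, GCLM and AKR1C1) were lower in HuCCT1/CD90+ (limma, p adjusted over the whole table ≤ 0.05), 0 were higher and 7 did not pass. These are bulk libraries, in which fewer cells with an mRNA and less of it per cell cannot be told apart. Over all 20811 genes, 9.52% were lower and 9.41% higher at this threshold, and of the 8794 genes that averaged 10 RPM or more, among them 7 of the 10, 14.1% were lower and 14.3% higher. The same 3 genes passed the study's own thresholds, a fold change of 1.5 with an unadjusted p ≤ 0.05, by which 9.98% of all genes were lower. By the unadjusted p alone (limma), 4 genes were lower and 1, SRXN1, higher, against 15.9% and 15.3% of all genes. On whole reads recovered from the RPM values, edgeR called 4 lower and 1 higher, against 13.7% and 13.9% of all genes, and DESeq2 called 4 lower and 0 higher, against 12.5% and 13.1%. Under a block for the replicate number, 1 of the 3 calls remained (NQO1, adjusted p = 0.040), in a fit that called 6.40% of all genes lower and 6.72% higher. The 3 libraries of HuCCT1/CD90+ lay below all 3 of HuCCT1/CD90- for 4 genes and above them for 2, against 17.7% and 17.3% of all genes. The 10 genes had a median log2 fold change (log2FC, on RPM + 1) of -0.18, where the whole table had 0.00.

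**Figure D1:**
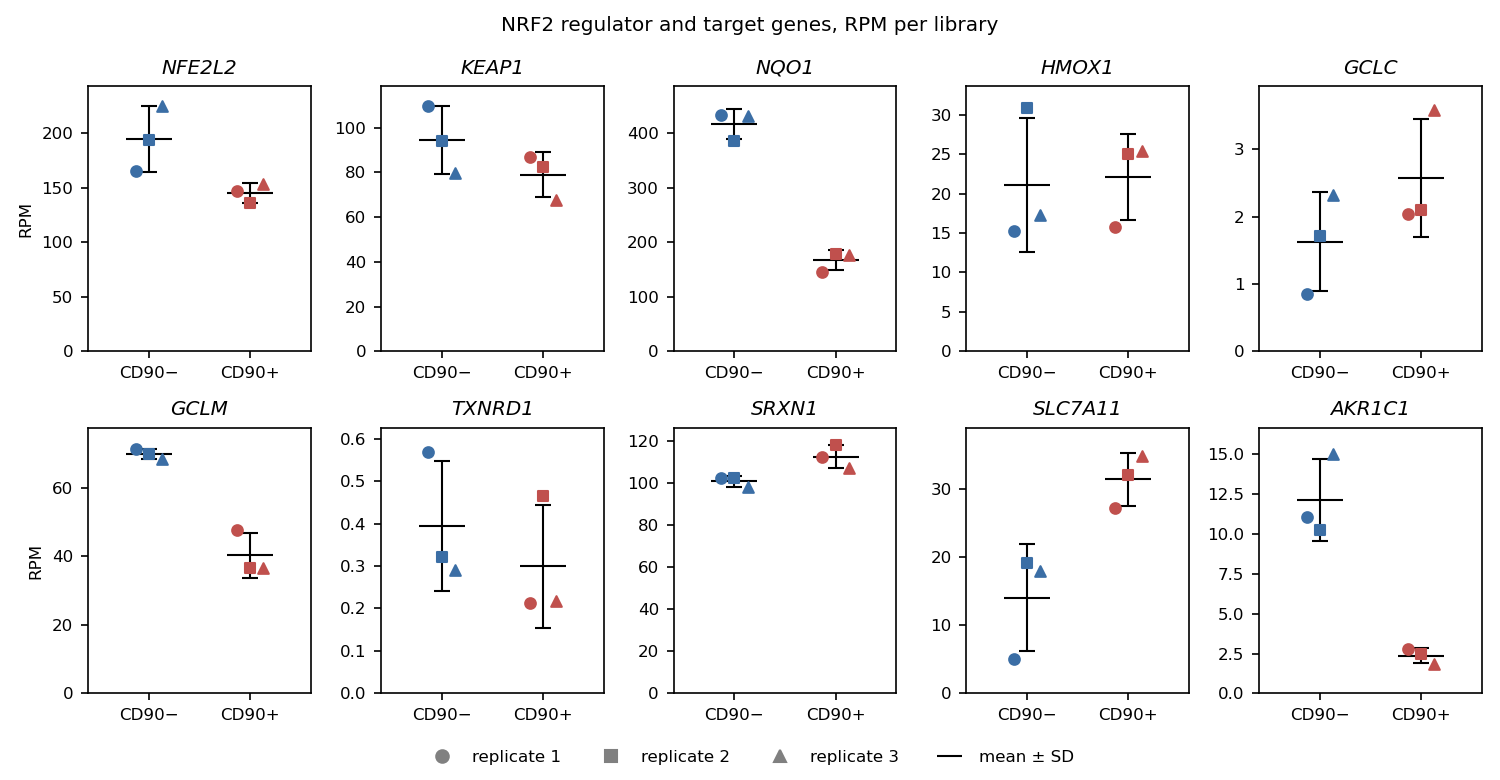
RPM (vertical axes, each starting at 0) of the 10 genes in the 3 libraries of each line; points are libraries with 1 marker per replicate number, and bars give the mean ± SD. NQO1, GCLM and AKR1C1 are separated between the lines with HuCCT1/CD90+ below, while the points of KEAP1, HMOX1, GCLC and TXNRD1 overlap.

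The regulators were examined first. NFE2L2 lies on the minus strand of chromosome 2 (GRCh38, 177227595 to 177392697; GENCODE 29, as for all gene positions here). It had 165, 194 and 225 RPM in HuCCT1/CD90- and 147, 136 and 154 RPM in HuCCT1/CD90+. The lines did not overlap, but the lowest HuCCT1/CD90- library lay close to the highest HuCCT1/CD90+ library. The mean went from 195 ± 30.1 to 146 ± 9.11 RPM (SD, n = 3 each), a log2FC of -0.41 (standard error, SE, 0.13, 95% confidence interval, CI, -0.76 to -0.057), with an adjusted p of 0.12 from limma over all genes. This difference passed on recovered reads (adjusted p = 0.018 with DESeq2 and 0.023 with edgeR after filterByExpr), after centring each library on its median (0.030) and among genes averaging 10 RPM or more (0.0494), and it did not with the block (0.15). KEAP1, on chromosome 19 from 10486120 to 10503741, had 110, 93.9 and 79.5 RPM in HuCCT1/CD90- and 86.7, 82.7 and 67.6 RPM in HuCCT1/CD90+. Its libraries overlapped, and within each line they stood in the same order of replicate numbers. The log2FC was -0.25 (95% CI -0.69 to 0.18, adjusted p = 0.41, or 0.080 with the block), an interval that holds both a fall and a small rise.

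Among the targets averaging 10 RPM or more, the largest fall was that of NQO1, the quinone reductase that uses NADPH or NADH to take quinones to hydroquinones. NQO1 lies on chromosome 16 from 69706996 to 69726951. It had 433, 385 and 431 RPM in HuCCT1/CD90- and 146, 179 and 177 RPM in HuCCT1/CD90+, so that every HuCCT1/CD90+ library held less than the lowest HuCCT1/CD90- library. The mean fell from 416 ± 27.4 to 167 ± 18.5 RPM, 2.49-fold lower, with a log2FC of -1.32 (SE 0.10, adjusted p = 0.0032). Each library held between 1360 and 4574 reads of NQO1. The 50 nearest genes averaging 10 RPM or more had a median log2FC of -0.34, and with this taken off NQO1 stayed lower (-0.98, adjusted p = 0.0076). Its adjusted p was at most 0.040 in all 18 alternatives.

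GCLM encodes the modifier subunit of glutamate-cysteine ligase, the first enzyme of glutathione synthesis, and GCLC encodes the catalytic subunit. GCLM lies on chromosome 1 from 93885205 to 93909456 and had 71.2, 69.8 and 68.3 RPM in HuCCT1/CD90- and 47.8, 36.4 and 36.6 RPM in HuCCT1/CD90+. The HuCCT1/CD90- libraries were nearly equal and all lay above HuCCT1/CD90+. The mean fell from 69.7 ± 1.44 to 40.3 ± 6.53 RPM, 1.73-fold lower (log2FC -0.79, SE 0.12, adjusted p = 0.018). This call was lost with the replicate block (adjusted p = 0.058), with the median change of neighbouring genes of -0.28 taken off (0.060), and when any 1 library other than HuCCT1/CD90+ replicate 1 was left out (0.061 to 0.066). GCLC was read at only 9, 16 and 24 reads in HuCCT1/CD90- and 19, 18 and 33 reads in HuCCT1/CD90+, or 0.853 to 2.33 and 2.04 to 3.58 RPM. Its libraries overlapped (log2FC 0.46, 95% CI -0.34 to 1.25, adjusted p = 0.42), while the pooled reads alone gave a ratio of 1.59 (exact 95% interval 1.09 to 2.34, counting error only). GCLC lies on chromosome 6 from 53497341 to 53616970.

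AKR1C1 is an aldo-keto reductase that reduces steroids and carbonyls. It lies on chromosome 10 from 4963253 to 4983283 and had 11.1, 10.3 and 15.0 RPM in HuCCT1/CD90- and 2.79, 2.45 and 1.85 RPM in HuCCT1/CD90+. The groups were well apart, with 96 to 155 reads per library against 17 to 26. The mean fell from 12.1 ± 2.55 to 2.36 ± 0.477 RPM, 5.14-fold lower on RPM (log2FC -1.96 of RPM + 1, SE 0.19, adjusted p = 0.0053, or 0.0549 with the block). AKR1C1 has near-identical neighbours, whose amplicons could take each other's reads, so its value alone is uncertain. AKR1C2 went from 11.3 ± 0.851 to 1.85 ± 1.04 RPM (log2FC -2.18, adjusted p = 0.016), a call lost with the block (0.070) and when any 1 HuCCT1/CD90- library or HuCCT1/CD90+ replicate 2 was left out. AKR1C3 had 18.9 to 19.0 and 1.16 to 1.93 RPM (log2FC -2.95, adjusted p = 0.00078), while AKR1C4 had 0 reads in all 6 libraries. The sum of AKR1C1, AKR1C2 and AKR1C3, which does not depend on how reads were split among these 3, was 42.0, 39.6 and 45.6 RPM in HuCCT1/CD90- and 5.47, 5.59 and 6.40 RPM in HuCCT1/CD90+, a 7.28-fold lower mean. Each of the 3 genes and their sum was thus lower in every HuCCT1/CD90+ library than in any HuCCT1/CD90- library.

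**Figure D2:**
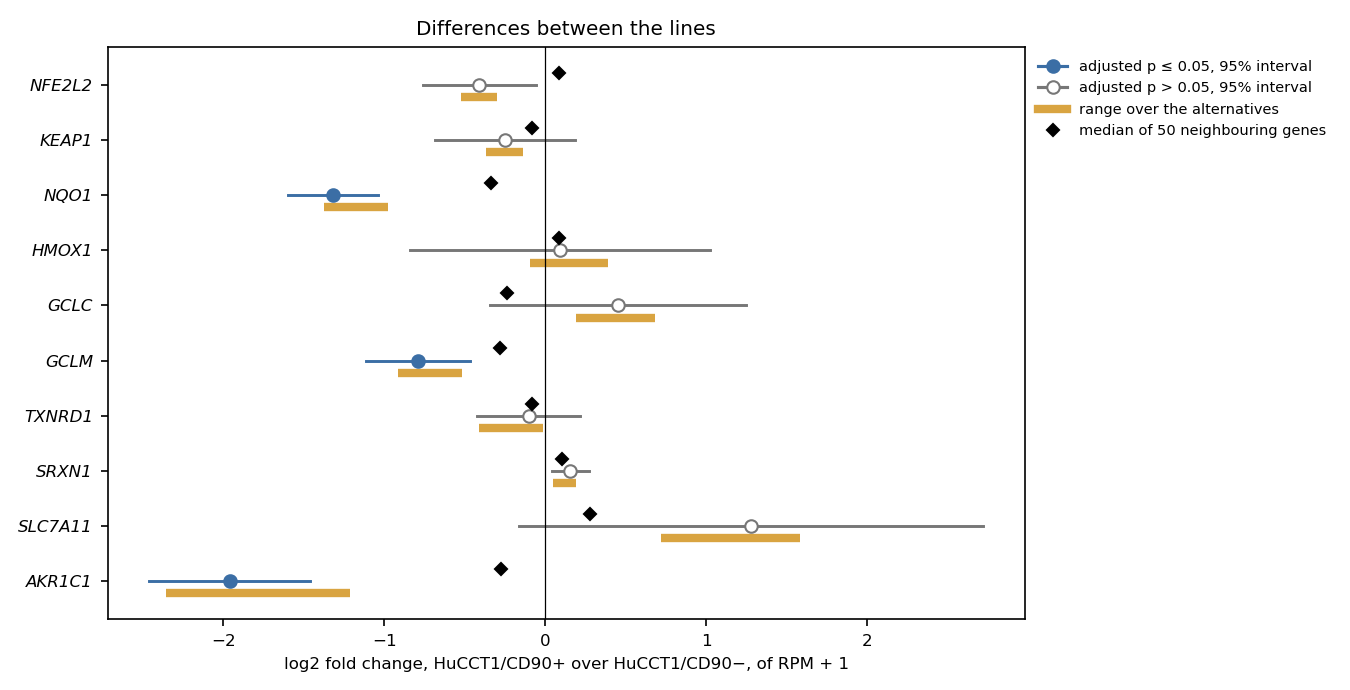
Log2FC of RPM + 1 (horizontal axis) between HuCCT1/CD90+ and HuCCT1/CD90- for each of the 10 genes, with the 95% CI from limma, the range over the 18 alternatives (count models give it for reads) and the median of 50 neighbouring genes. NFE2L2, NQO1, GCLM and AKR1C1 lie below 0 with their whole interval and below their neighbours, of which NFE2L2 did not pass the adjusted p, and the interval of SLC7A11 reaches from -0.16 to 2.72.

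SLC7A11, the light chain of the cystine importer that feeds glutathione synthesis, was the gene with the largest rise in value, but not one that passed. It lies on chromosome 4 from 138164097 to 138242349 and had 5.12, 19.2 and 18.0 RPM in HuCCT1/CD90- and 27.3, 32.1 and 34.9 RPM in HuCCT1/CD90+. All HuCCT1/CD90+ libraries were above all HuCCT1/CD90- libraries, of which replicate 1 stood well below the other 2. The mean was 14.1 ± 7.80 against 31.5 ± 3.85 RPM, a log2FC of 1.28 (SE 0.54, 95% CI -0.16 to 2.72, adjusted p = 0.21). Without HuCCT1/CD90- replicate 1 the log2FC was 0.72 and passed (adjusted p = 0.0496). It also passed among genes averaging at least 1 or 10 RPM (0.016 and 0.010) and with edgeR after filterByExpr (0.0036), and not with DESeq2 (0.070) or the block (0.20). Whether reads were counted by strand is not given in the sources used here, and the antisense gene SLC7A11-AS1 had at most 4 reads in any library. SLC3A2, the heavy chain that carries SLC7A11 to the membrane, had 209, 323 and 266 RPM in HuCCT1/CD90- and 212, 344 and 250 RPM in HuCCT1/CD90+ (log2FC 0.0090, adjusted p = 1.0).

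The spread of SLC7A11 within HuCCT1/CD90- was set beside SLC3A2, CHAC1, which encodes an enzyme that degrades glutathione, and SESN2, which encodes a stress-induced sestrin. These 3 genes were chosen after their values were seen. CHAC1 had 4.27, 94.4 and 54.4 RPM in HuCCT1/CD90- replicates 1, 2 and 3 and 33.3, 116 and 44.3 RPM in HuCCT1/CD90+. SESN2 had 24.5, 77.0 and 46.5 RPM and 55.4, 109 and 69.8 RPM. For SLC3A2, CHAC1 and SESN2 the library numbered 2 was the highest of its line in both lines, and the library numbered 1 was the lowest in both. SLC7A11 was lowest in number 1 of both lines, but highest in number 2 of HuCCT1/CD90- and number 3 of HuCCT1/CD90+. None of the 3 passed between the lines with limma (adjusted p of at least 0.46). SESN2 was higher in HuCCT1/CD90+ at each of the 3 numbers, and passed with edgeR without a filter (0.00051) but not after filterByExpr (0.067), with DESeq2 (0.34) or with the block (0.14).

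**Figure D3:**
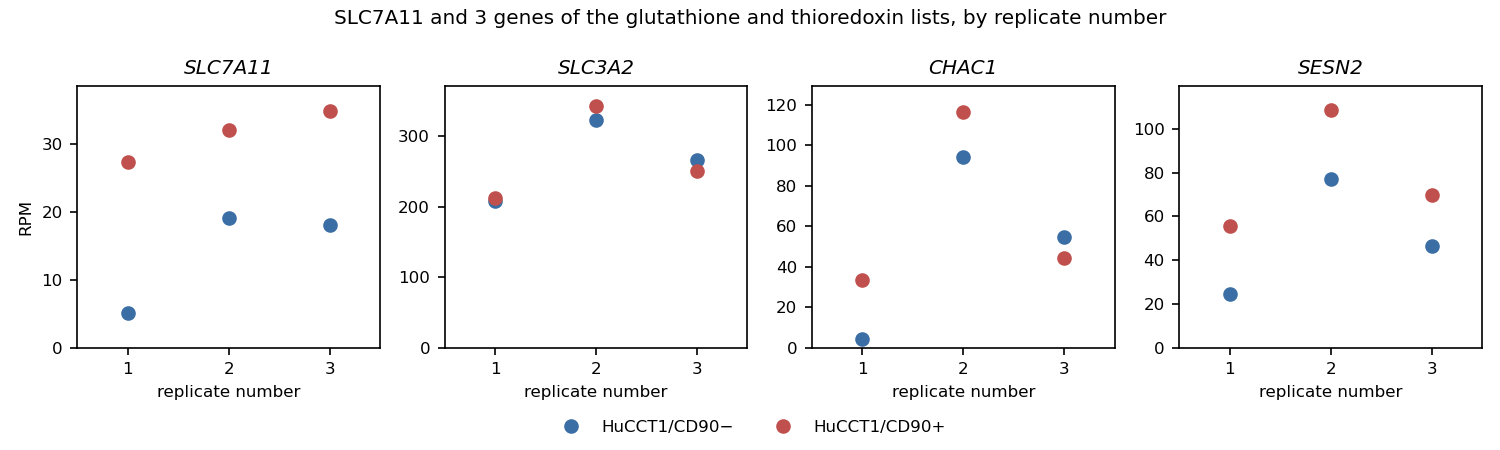
RPM (vertical axes, from 0) of SLC7A11, SLC3A2, CHAC1 and SESN2 against the replicate number (horizontal axes), which names libraries and has no order; blue points are HuCCT1/CD90- and red points HuCCT1/CD90+. The points of SLC3A2 nearly coincide between lines at each number, and the 5.12 RPM of SLC7A11 in HuCCT1/CD90- replicate 1 is its lowest point.

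SRXN1, HMOX1 and TXNRD1 were the remaining targets, and none of them passed. SRXN1, the sulfiredoxin that repairs overoxidized peroxiredoxins, lies on chromosome 20 from 646615 to 653370. It had 102, 102 and 98.0 RPM in HuCCT1/CD90- and 113, 118 and 107 RPM in HuCCT1/CD90+. These groups did not overlap, yet the difference was small: the log2FC was 0.16 (SE 0.043, 95% CI 0.040 to 0.27, adjusted p = 0.080), and it was 0.048 with the median of neighbouring genes taken off. HMOX1, heme oxygenase 1, which opens the heme ring, lies on chromosome 22 from 35380361 to 35394214 and had 15.3, 30.8 and 17.3 RPM in HuCCT1/CD90- and 15.8, 25.0 and 25.4 RPM in HuCCT1/CD90+. Its groups overlapped fully, with an interval of the log2FC from -0.84 to 1.03 (estimate 0.095, adjusted p = 1.0), so that a change of up to about that size in either direction could not be seen. TXNRD1, the cytosolic thioredoxin reductase, lies on chromosome 12 from 104215779 to 104350305. Its amplicon gave 6, 3 and 3 reads in HuCCT1/CD90- and 2, 4 and 2 reads in HuCCT1/CD90+. The ratio of the pooled reads per library total was 0.742 (exact 95% interval from 0.263 to 1.97, counting error only), and nothing can be read from it about the level of the enzyme's mRNA.

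The start regions of the genes that fell were then read for the ARE core, TGACNNNGC, on both strands. RefSeq windows from 250 bases before to 50 after a gene start (GRCh38.p14) were given for 8 of the 10 genes, in 11 windows, since a gene can have more than 1 start. HMOX1 and SLC7A11 had none. The 3 genes that passed are shown, with KEAP1 as the regulator whose window held 2 matches; capitals mark the core and its complement, each line runs 5′ to 3′ along the gene's strand.
GCLM, chr1:93909381-93909680, minus strand: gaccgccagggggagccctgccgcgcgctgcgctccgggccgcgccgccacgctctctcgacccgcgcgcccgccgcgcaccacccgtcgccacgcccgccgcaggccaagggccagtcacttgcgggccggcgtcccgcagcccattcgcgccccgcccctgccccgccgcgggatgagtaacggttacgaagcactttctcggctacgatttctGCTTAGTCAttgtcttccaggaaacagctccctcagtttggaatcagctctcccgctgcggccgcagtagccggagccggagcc
KEAP1, chr19:10502722-10503021, minus strand: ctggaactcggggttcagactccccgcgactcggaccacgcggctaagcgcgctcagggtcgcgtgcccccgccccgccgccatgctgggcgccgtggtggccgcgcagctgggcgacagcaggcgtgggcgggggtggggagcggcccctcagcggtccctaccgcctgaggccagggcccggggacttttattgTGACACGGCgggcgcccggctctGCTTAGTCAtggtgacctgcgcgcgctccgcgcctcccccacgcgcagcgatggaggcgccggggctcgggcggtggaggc
NQO1, chr16:69726511-69726810, minus strand: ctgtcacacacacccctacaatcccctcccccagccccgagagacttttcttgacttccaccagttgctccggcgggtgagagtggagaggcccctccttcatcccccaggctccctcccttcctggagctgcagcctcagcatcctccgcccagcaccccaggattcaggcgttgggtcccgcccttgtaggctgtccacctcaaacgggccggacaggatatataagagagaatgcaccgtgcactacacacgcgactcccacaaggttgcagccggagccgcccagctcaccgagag
AKR1C1, chr10:4963165-4963464, plus strand: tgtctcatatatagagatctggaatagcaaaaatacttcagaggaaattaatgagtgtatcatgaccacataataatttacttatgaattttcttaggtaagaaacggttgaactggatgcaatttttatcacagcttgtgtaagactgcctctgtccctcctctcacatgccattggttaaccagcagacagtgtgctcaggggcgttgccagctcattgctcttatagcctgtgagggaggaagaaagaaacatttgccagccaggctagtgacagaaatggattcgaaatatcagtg

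The GCLM window held 1 match, GCTTAGTCA, whose first base lies at position -34 from the start. KEAP1 held TGACACGGC at -54 and GCTTAGTCA at -31, the latter with the same 9 letters as in GCLM. TXNRD1 held TGACTTCGC at -99 and GCTCCGTCA at -8 in 1 window and GCTTTGTCA at -102 in the other. None of these 6 matches overlapped the AP-1 letters TGANTCA. The windows of NFE2L2, NQO1, GCLC, SRXN1 and AKR1C1 held no match, so 1 of the 3 genes that fell had these letters in its window. Of the 11 windows, 36.4% held a match, against 13.3% of all 35116 windows in the table. By gene, it was 37.5% of the 8 genes with a window, 31.3% of the 67 pathway genes below that have one and 18.1% of the 14008 genes of the expression table that have one. A match is a set of letters and not a measured binding site, and windows of this length leave out distal elements.

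Beyond the 10 genes, 83 genes of the pathway were taken in 7 lists (partners and turnover, glutathione, thioredoxin, quinone, carbonyl and drug enzymes, heme and iron, NADPH supply, and superoxide and peroxide enzymes). Of the 83, 18 were lower and 6 higher in HuCCT1/CD90+ (limma, adjusted p ≤ 0.05) and 59 did not pass, where all genes gave 9.52% lower and 9.41% higher. Of the 83 genes, 62 averaged 10 RPM or more, a level at which 14.1% of the table's genes were lower and 14.3% higher. At the floor in all libraries were 6 of the 83, against 6713 of all 20811 genes. The median log2FC of the 83 was -0.12, or -0.13 without those 6 genes. With the replicate block 14 were lower and 5 higher, where 6.40% and 6.72% of all genes were, and with the median of neighbouring genes taken off 12 and 6, in a fit that called 8.26% of all genes lower and 7.85% higher. Leaving out 1 library left 9 to 15 lower and 3 to 4 higher, in fits that called 5.02% to 7.40% of all genes lower and 5.54% to 6.69% higher. The lower count was 10 without HuCCT1/CD90- replicate 2 or 3 or HuCCT1/CD90+ replicate 1, 11 without HuCCT1/CD90+ replicate 2 and 9 without HuCCT1/CD90+ replicate 3. The higher count was 3 without HuCCT1/CD90+ replicate 1. Of the 24 genes called, 9 were called the same way in all alternatives that gave a value: MAFK, ABCC1, AKR1B1, AKR1C3, ALDH3A1, EPHX1, PIR, TRIM16 and FTH1.

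**Figure D4:**
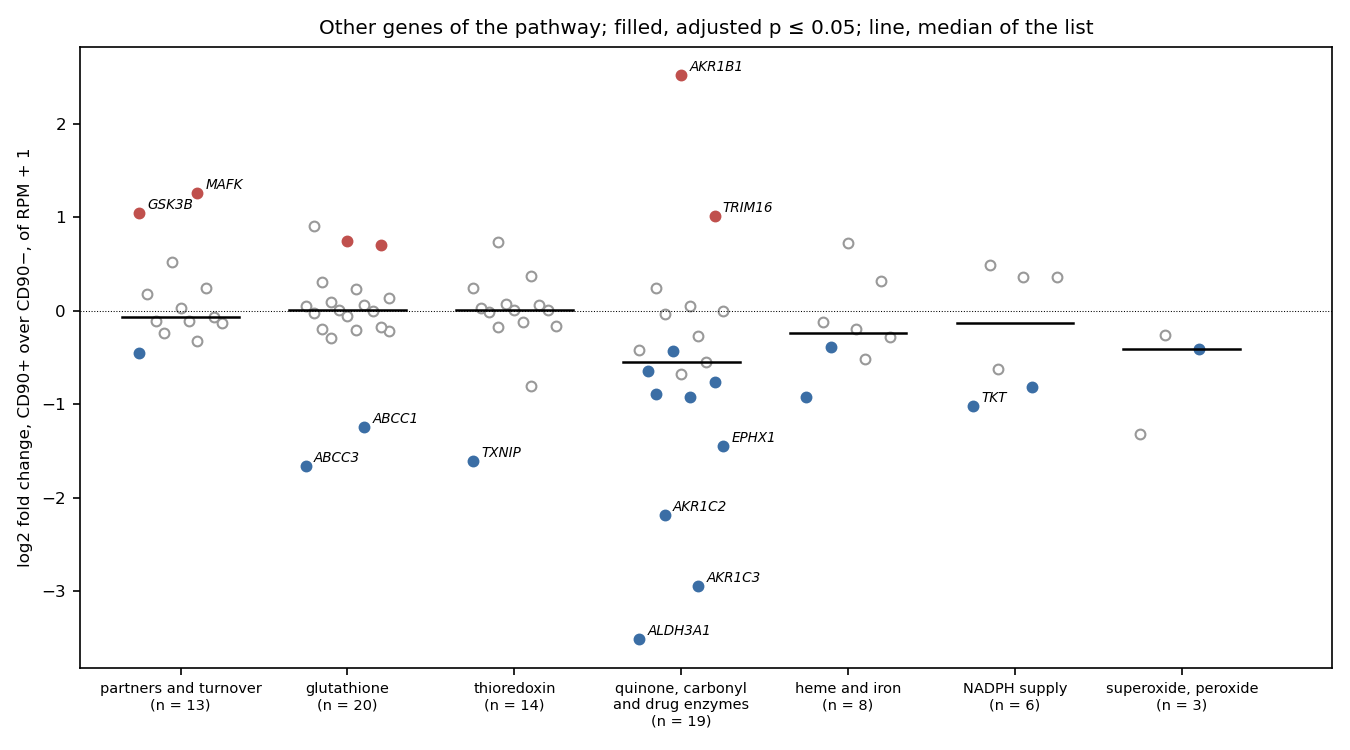
Log2FC of RPM + 1 (vertical axis) between HuCCT1/CD90+ and HuCCT1/CD90- for the 83 other pathway genes by list (horizontal axis); each point is a gene, filled where its adjusted p is ≤ 0.05 (blue lower, red higher), and lines are list medians. The quinone, carbonyl and drug enzymes have the lowest median, -0.55, with 9 of 19 lower.

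The quinone, carbonyl and drug enzymes held 9 of the 18 falls, with 2 of 19 higher, 8 not passing and a median log2FC of -0.55, where 9.52% of all genes were lower and 9.41% higher. Of the 19, 13 averaged 10 RPM or more, a level at which 14.1% of the table's genes were lower and 14.3% higher. With the replicate block 5 of 19 were lower (6.40% of all genes), and with neighbouring genes taken off 6 (8.26%). The list was chosen with earlier results of these data known, and its falls AKR1C2 and AKR1C3 could share reads. ALDH3A1, an aldehyde dehydrogenase, had 23.2, 21.9 and 17.3 RPM in HuCCT1/CD90- and 0.322, 1.75 and 0.868 RPM in HuCCT1/CD90+. Its log2FC of RPM + 1 was -3.52 (adjusted p = 0.0044), and AKR1C3 and AKR1C2 had the values above. EPHX1, the microsomal epoxide hydrolase, had 177 to 225 RPM in HuCCT1/CD90- against 70.8 to 73.0 RPM in HuCCT1/CD90+ (log2FC -1.45, adjusted p = 0.0021). The other 5 falls, AKR1A1, AKR1B10, AKR7A2, UGT1A6 and PIR, were between -0.92 and -0.43 on the log2 scale. UGT1A6 had only 4 to 9 reads in HuCCT1/CD90- and 1 read in all of HuCCT1/CD90+, a pooled ratio of 0.0586 (exact 95% interval 0.00141 to 0.369, counting error only), and its amplicon may be shared with other UGT1A genes of the locus. The calls of AKR1A1, AKR1B10 and UGT1A6 were lost with the block, and those of AKR1A1, AKR7A2 and UGT1A6 with neighbours taken off. Taking neighbours off moved the log2FC of AKR1A1 from -0.432 to -0.204 and that of AKR7A2 from -0.895 to -0.630. It left that of UGT1A6 nearly unchanged (-0.650 and -0.651). The calls of AKR1A1 and UGT1A6 were also lost without most single libraries, and those of AKR1B10 and AKR7A2 without HuCCT1/CD90- replicate 2 or HuCCT1/CD90+ replicate 2 or 3, and for AKR7A2 also HuCCT1/CD90+ replicate 1. AKR1B1, the aldose reductase, went the other way, from 3.53 to 4.66 RPM in HuCCT1/CD90- to 21.5 to 35.7 RPM in HuCCT1/CD90+ (log2FC 2.52, adjusted p = 0.0038). Genes near AKR1B1 on chromosome 7 had a median of 0.50, and with this taken off it was still higher (2.04, adjusted p = 0.0069). TRIM16, a ubiquitin ligase gene, rose from 128 ± 5.01 to 258 ± 9.26 RPM (log2FC 1.01, adjusted p = 0.00073). Its near-identical copy TRIM16L could share reads and had a log2FC of -0.038 (adjusted p = 0.98).

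Among the partners and turnover genes, 2 of 13 were higher and 1 lower, counts near the background of 9.41% and 9.52% of all genes. MAFK, which encodes a small MAF partner of NRF2, had 46.9, 51.6 and 46.0 RPM in HuCCT1/CD90- and 119, 118 and 113 RPM in HuCCT1/CD90+. All of its HuCCT1/CD90+ libraries were well above the highest HuCCT1/CD90- library (log2FC 1.26, SE 0.052, adjusted p = 0.00075). With the neighbouring genes of chromosome 7 taken off (median 0.39) the log2FC was 0.87 (adjusted p = 0.0018). GSK3B, a kinase that marks NRF2 for KEAP1-independent turnover, rose from 36.0 ± 6.34 to 74.6 ± 3.34 RPM (log2FC 1.04, adjusted p = 0.015), a call lost when any 1 HuCCT1/CD90+ library was left out. Its neighbours on chromosome 3 had a median of 0.60, and the call was lost with this taken off (0.13). NFE2L1, the NRF2 relative that controls proteasome genes, fell from 480 ± 35.3 to 351 ± 31.4 RPM (log2FC -0.45, adjusted p = 0.037). Its call was lost when any 1 library was left out and with neighbours taken off (0.056), where the log2FC was still -0.40. The other small MAF genes MAFF and MAFG, the repressor BACH1, CUL3 and SQSTM1 did not pass, with log2FC values from -0.24 for MAFG to 0.25 for BACH1.

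In the glutathione list 2 of 20 genes were lower and 2 higher, shares near those of all genes (9.52% and 9.41%), with a median log2FC of 0.0040. The lower ones were exporters of glutathione conjugates. ABCC1 had 157, 171 and 146 RPM in HuCCT1/CD90- and 62.2, 71.7 and 64.9 RPM in HuCCT1/CD90+ (log2FC -1.24, adjusted p = 0.0021), and ABCC3 fell from 21.0 ± 5.71 to 5.81 ± 0.649 RPM (log2FC -1.66, adjusted p = 0.014), a call lost without HuCCT1/CD90- replicate 3 or HuCCT1/CD90+ replicate 1 or 3. GSTM4, a glutathione transferase, rose from 2.46 ± 0.303 to 4.68 ± 0.846 RPM (adjusted p = 0.030), a call lost with the block (0.085) and when any 1 library other than HuCCT1/CD90+ replicate 3 was left out. Its relatives GSTM1 and GSTM2, with at most 16 pooled reads in a line, could share its reads. GPX2, a glutathione peroxidase, had 0 reads in HuCCT1/CD90- and 9, 3 and 7 reads in HuCCT1/CD90+, at least 2.31-fold higher when each HuCCT1/CD90- library is set at 3 reads (adjusted p = 0.038), a call lost with the block (0.10) and when any 1 library other than HuCCT1/CD90+ replicate 2 was left out. GSS, GSR, GPX1, GPX4 and GSTP1 had log2FC values from -0.19 for GSR to 0.13 for GSS and did not pass.

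In the thioredoxin list 1 of 14 genes was lower and 0 higher (limma, adjusted p ≤ 0.05), near the shares of all genes (9.52% and 9.41%). By limma's unadjusted p ≤ 0.05, 2 were lower and 1 higher (15.9% and 15.3% of all genes). With edgeR 2 were lower and 1 higher (13.7% and 13.9%), and with DESeq2 1 lower and 0 higher (12.5% and 13.1%). TXNIP, the inhibitor of thioredoxin, fell from 368 ± 70.9 to 121 ± 30.2 RPM (log2FC -1.61, adjusted p = 0.017). Genes near TXNIP on chromosome 1 had a median of -0.47, and with this taken off its log2FC was -1.14 (adjusted p = 0.0463). The call was lost without HuCCT1/CD90- replicate 2 or 3 or HuCCT1/CD90+ replicate 1 or 3. PRDX2 and PRDX3, of the peroxiredoxins, had log2FC values of 0.0020 and -0.013. PRDX1 had at most 3 reads in any library, so that, as for TXNRD1, its amplicon gave no usable value.

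The heme and iron list had 2 of 8 genes lower and 0 higher, the NADPH list 2 of 6 lower and 0 higher, and the superoxide and peroxide list 1 of 3 lower and 0 higher (limma, adjusted p ≤ 0.05). At this threshold 9.52% of all genes were lower and 9.41% higher, or 14.1% and 14.3% of genes averaging 10 RPM or more. By limma's unadjusted p ≤ 0.05, 2, 3 and 2 genes of these lists were lower and 0, 1 and 0 higher, against 15.9% and 15.3% of all genes. Called by edgeR (13.7% lower and 13.9% higher of all genes) and likewise by DESeq2 (12.5% and 13.1%) were 1, 3 and 2 lower and 1, 1 and 0 higher. FTH1, the heavy chain of ferritin, fell from 4999 ± 574 to 2627 ± 173 RPM (log2FC -0.92, adjusted p = 0.0085). FTH1 has many processed copies in the genome, so its reads could be shared. FTL, the light chain, had a log2FC of -0.12 (adjusted p = 0.74). ABCB6, a porphyrin transporter, was slightly lower (log2FC -0.39, adjusted p = 0.0469), and this call was lost on recovered reads (0.072 with DESeq2) and when any 1 library was left out. PGD and TKT, of the pentose phosphate pathway, fell from 420 ± 37.2 to 238 ± 12.3 RPM (adjusted p = 0.0060) and from 907 ± 145 to 452 ± 110 RPM (adjusted p = 0.044). With the median of their neighbours taken off, which was -0.60 for PGD on chromosome 1 and -0.22 for TKT, neither passed (0.19 and 0.088). The log2FC went from -0.81 to -0.21 for PGD and from -1.02 to -0.80 for TKT. TKT passed without only 1 of the libraries, HuCCT1/CD90+ replicate 2. SOD1, the cytosolic superoxide dismutase, fell from 945 ± 45.6 to 713 ± 38.5 RPM (log2FC -0.41, adjusted p = 0.014), a call lost without HuCCT1/CD90+ replicate 1.

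The genes whose values over the 6 libraries were most like those of 2 members were named by Pearson correlation of log2(RPM + 1), among genes averaging 10 RPM or more. For NFE2L2 they were ASH1L (r = 0.994), ATP6AP2 (r = 0.985) and CCDC6 (r = 0.983). For NQO1 they were ENDOD1 (r = 0.999), NFYC (r = 0.998) and FMNL3 (r = 0.998). These are descriptions over 6 libraries of 2 lines, and 625 genes reached 0.95 with NQO1 and 51 with NFE2L2.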

How the data were processed

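Total RNA of 6 HuCCT1 libraries was reverse-transcribed and amplified with the Ion AmpliSeq Transcriptome panel for an Ion GeneStudio S5 Prime run. RPM is the unit the authors deposited, from amplicon counts of the ampliSeqRNA plugin. The submitters' processing notes name hg19. Values were whole multiples of 1 read in 100% of cases (tolerance 0.1 reads). PCR reads carry no molecular identifiers, so the floors and the exact intervals of pooled reads cover counting error only. The limma intervals rest on the spread between libraries. No library was a copy of another, since replicates differed beyond sampling noise.

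Differences were tested on log2(RPM + 1), a scale that understates changes of weakly read genes, with limma 3.58.1 (lmFit, eBayes) in R 4.3.3 over all 20811 genes, as the study's methods name limma, with Benjamini-Hochberg adjustment. The prior degrees of freedom were 0.449, or 8.54 for genes averaging 10 RPM or more, so the main fit borrows little across genes. Alternatives included edgeR 4.0.16 and DESeq2 1.42.0 on the recovered reads. Same-numbered libraries deviated together (r = 0.209, 0.320 and 0.178 for numbers 1 to 3, other pairs from -0.294 to 0.071), and on this basis only were libraries of 1 number treated as pairs. Neighbouring genes were placed with GENCODE 29 (18561 of 20811 symbols matched once), which gives GRCh38, not hg19. Fits were tested on simulated data with independent libraries and large changes in genes averaging 10 RPM or more. That simulation did not cover paired libraries, small changes or changes of weakly read genes.

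The 10 members and the pathway lists were chosen with earlier results of these data known. From each pathway list, called genes were named, up to 4 in each direction by size of change where there were more, as were AKR1C2, AKR1C3 and AKR1C4. The other 5 lower genes of the drug enzyme list, and genes named as not passing, were chosen after their values were seen.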

Additional observations from a re-analysis of the deposited data

How the results depend on the processing

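Among the 10 genes, 0 were called higher and 3 lower (limma). Under the replicate block 1 was lower, and with neighbouring genes taken off 2 were. With median centring, DESeq2 and edgeR with or without filterByExpr 4 were lower, NFE2L2 being added. Among genes averaging 1 RPM or more, or 10 RPM or more, and with edgeR with or without filterByExpr, 1 was higher (SLC7A11). Leaving out 1 library gave 0 to 1 higher (1 without HuCCT1/CD90- replicate 1) and 2 to 3 lower. Among the 83 pathway genes, 6 were higher and 18 lower. With edgeR without a filter 10 were higher, in a fit with infinite prior degrees of freedom that lets no gene keep a spread of its own. DESeq2 called 9 higher, and edgeR after filterByExpr and the fit of genes averaging 1 RPM or more called 8 each. The cause of these larger counts was not tested. With all libraries kept, the lower count ran from 12 with neighbouring genes taken off to 22 with median centring. Leaving out 1 library gave 3 to 4 higher and 9 to 15 lower, with 5 libraries and fewer degrees of freedom. Among the 10 genes and the named pathway genes, the block changed the calls of GCLM, AKR1C1, AKR1C2, GSTM4, GPX2, AKR1A1, AKR1B10 and UGT1A6, and HMOX2 passed with it (adjusted p = 0.040). HMOX1, with a log2 fold change of 0.095, turned to -0.094 and -0.010 without HuCCT1/CD90- replicate 1 or 3 and to -0.008 and -0.017 without HuCCT1/CD90+ replicate 2 or 3, with 0.390 as its highest value, without HuCCT1/CD90- replicate 2. Of 175 values of single genes under the alternatives, 153 kept both direction and side of the threshold. Quantile normalization and median centring moved the median log2 fold change by less than 0.1. Where no cause is shown by the setting itself, the cause was not tested. GCLC, TXNRD1 and PRDX1 rest on few reads, for which the cause was not tested.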
